A study of Mus musculus with 18 samples.

Results

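The comparison is of RNA pulled down with HA-tagged ribosomes (IP) from the brains of glioma-bearing mice with the same fraction from mice without a tumor. Its members are 6 of the 18 libraries of the series, 3 of tumor IP and 3 of control IP, taken by their labels, and it was made over all genes. Every mouse, controls included, had the genotype Camk2a-Cre-Rpl22HA, in which a Cre recombinase under the Camk2a promoter adds an HA epitope to the ribosomal protein Rpl22. Tumor mice had received glioma cells in the cortex, control mice had no tumor, and neither group had the mTOR inhibitor AZD8055 that another group received. Age, sex, the glioma line and the time after implantation are not given in the labels. Total (input) RNA of the same 2 conditions, with 3 libraries each, is given beside the IP values where it bears on them. Whether replicate numbers stand for separate animals is not said in the labels, and the p-values therefore reflect only variation among these libraries, possibly technical. Both IP groups carry library names of 1 set.

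Pulling down a tagged ribosome retrieves the messages that the tagged cells are translating, without sorting the cells. The Camk2a promoter is active mainly in excitatory (glutamatergic) neurons of the forebrain, so this design asks what those neurons translate beside a tumor. Gliomas infiltrate cortex, and neurons next to them are known for hyperexcitability, which the excitatory and inhibitory receptors, the chloride gradient and the voltage-gated channels set. The pull-down is an enrichment and not a purification, and RNA of untagged cells that stays with the beads is counted as well.

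Counts of reads per gene symbol totalled 16673120 to 34178417 per IP library. Levels below are given in CPM (counts scaled to the effective library size of the 6 IP libraries), changes are log2 folds of tumor IP over control IP ± the standard error of the fit, and a gene is said to have risen or fallen when its adjusted p was under 0.05 (edgeR quasi-likelihood F test, Benjamini-Hochberg over all genes tested). On the first principal axis, with 78.8% of the variance, the control IP libraries lay at -55.8, -57.3 and -57 and the tumor IP libraries at 77.5, 46.5 and 46.2. Tumor IP replicate 1 stood apart from the other 2 tumor libraries, also on the second axis (8.73% of the variance; 32.2 against -19.6 and -22.5). Genes of ependyma, choroid plexus and red cells summed to 598 CPM in it, against 71.9 and 87.6 CPM in tumor IP replicates 2 and 3 and 86.2 to 191 CPM in control IP, and the part of this in the results was not tested. Of the genes that rose, 2689 of 4007 were highest in this library, and of those that fell 2586 of 3479 were lowest in it. Without it 4123 genes were higher and 3336 lower. Control IP replicate 1 carried more RNA of the genes highest in tumor: over 38 genes with a log2 fold of 5 or more and a tumor mean of at least 5 CPM, its median level was 3.37% of the tumor IP mean, against 1.42% and 1.51% in control IP replicates 2 and 3. Control input replicate 1 also held more RNA of these genes, at a median of 3.67% of the tumor input mean, against 1.72% and 1.7% in control input replicates 2 and 3.

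Of 15342 genes tested, 4007 (26.1%) were higher and 3479 (22.7%) lower in tumor IP, so 48.8% were called. Each count of risers and fallers in a gene list below is to be read against these shares. With upper quartile scaling the split was 3603 and 4110 and with plain totals 4672 and 2738, so which direction held more genes depends on the scaling. The changes upward were larger. A log2 fold of 1 or more was reached by 1719 genes that rose (11.2% of those tested) and 455 that fell (2.97%), a fold of 2 or more by 721 and 8, and a fold of 3 or more by 356 and 1. The median log2 fold of all genes tested was 0.01 and the median standard error 0.14. The libraries of the 2 groups did not overlap for 9432 genes (61.5%), so a lack of overlap sets no gene named below apart from most genes tested. The genes that rose by a log2 fold of 2 or more took 4.81%, 3.60% and 3.49% of the counts of the 3 tumor IP libraries and 0.500%, 0.508% and 0.496% of those of the control IP libraries.

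**Figure D1:**
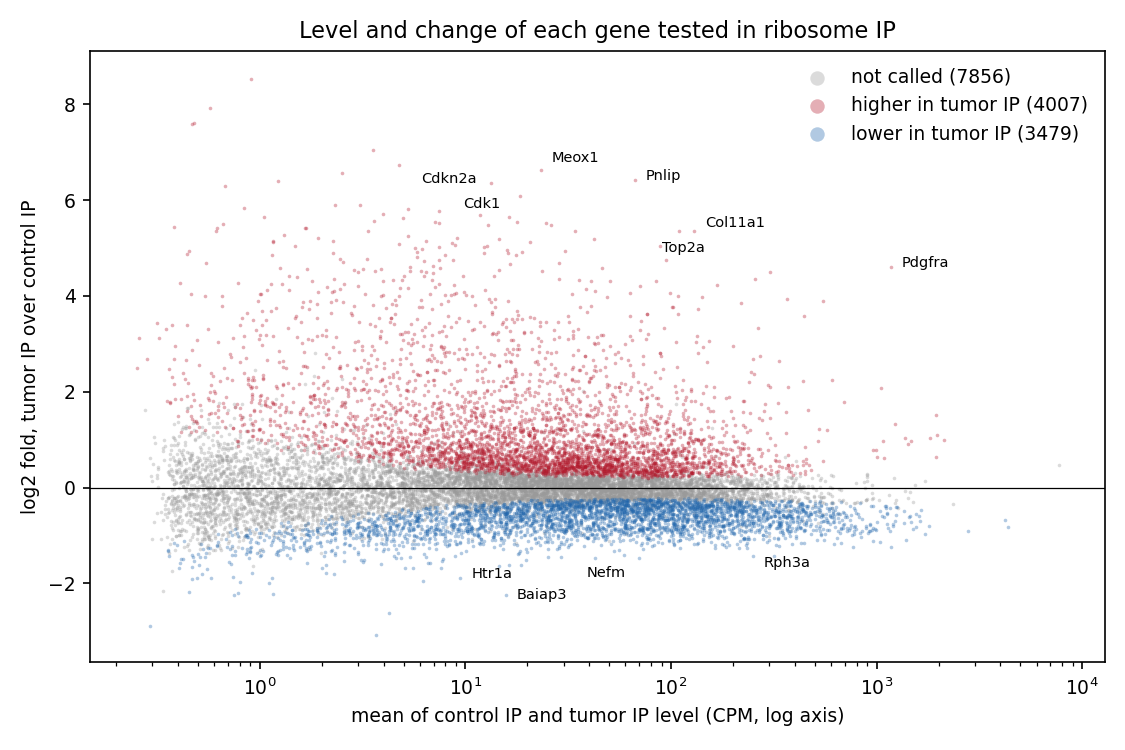
Log2 fold of tumor IP over control IP (y axis) against the mean level of both groups in CPM (x axis, log scale), 1 point per gene tested, with 4007 genes higher, 3479 lower and 7856 not called. Points above 0 reach further from it than points below: 356 genes rose by a log2 fold of 3 or more and 1 fell by as much.

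Camk2a, a synaptic kinase and the gene that lends Cre its promoter, was measured at 1830.2, 1584 and 1558 CPM in control IP and 547, 767 and 794 CPM in tumor IP. The tumor libraries were all below the controls, with replicate 1 lowest, and the log2 fold was -1.24 ± 0.16 (adjusted p = 0.000535). All 20 excitatory-neuron markers were detected in both groups, and 18 of them fell with none rising (median -0.86, against 0.01 over all genes). The 10 genes for glutamate packaging and calcium signalling all fell. Among them Nrgn, neurogranin, which holds calmodulin in spines, was at 372, 275 and 322 CPM in control IP and 129, 162 and 144 CPM in tumor IP, and Hpca, the calcium sensor hippocalcin, had a log2 fold of -0.89 ± 0.17. Slc17a7, the vesicular glutamate transporter of cortical neurons, was at 1090.0, 770.1 and 832 CPM in control IP and 640.1, 661 and 505 CPM in tumor IP, a smaller difference (-0.58 ± 0.16) whose adjusted p of 0.0189 went to 0.06 without control IP replicate 1 and 0.0507 without tumor IP replicate 3. Of the 10 transcription factors 8 fell, with Tbr1, a factor of deep-layer neurons, at -0.94 ± 0.19.

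Markers of other cells were abundant in the IP of both conditions. The 20 homeostatic astrocyte genes summed to between 11073 and 11795 CPM in control IP, against 7737 to 9169 CPM for the 20 excitatory markers, on a scale that is not corrected for gene length. Inhibitory-neuron markers fell with the excitatory ones: 15 of 26 fell and 1 rose, and their sum lay from 1842 to 2029 CPM in control IP and from 1265 to 1679.8 CPM in tumor IP. Gad1, which makes GABA, was at 396, 442 and 423 CPM in control IP and 179, 309.9 and 255 CPM in tumor IP. The interneuron markers Pvalb (-1.36 ± 0.30), Vip (-1.19 ± 0.27) and Sst (-1.01 ± 0.23) fell as well, and the gene of the list that rose, Sox6 (2.62 ± 0.11), is also a factor of oligodendrocyte precursors. Markers of the glioma lineage rose as a sum from 2194 to 2472 CPM in control IP and from 9953 to 11326 CPM in tumor IP. Fewer cells of a type and less RNA per cell cannot be told apart in these bulk libraries, and the part of cell composition in each neuronal list below was not tested.

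**Figure D2:**
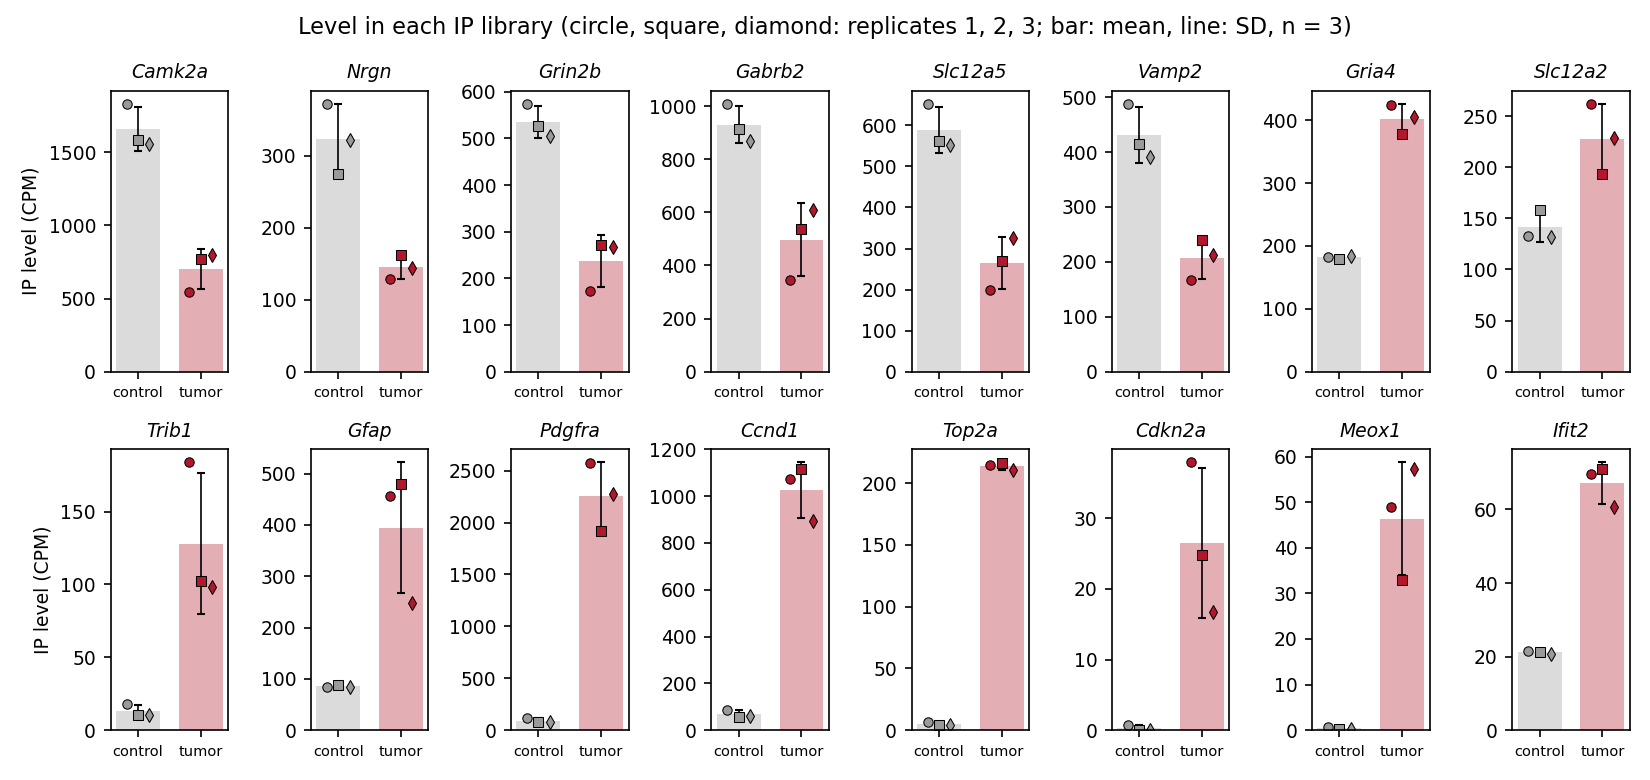
Level in CPM (y axis, from 0) of 16 genes in each control IP and tumor IP library, with markers for replicates 1, 2 and 3, bars for the mean and lines for the SD (n = 3). The 2 groups are separate for each gene, as for 61.5% of all genes tested. Levels are lower in tumor for Camk2a, Nrgn, Grin2b, Gabrb2, Slc12a5 and Vamp2 and higher for the other 10.

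Genes that mark cortical layers did not all follow the excitatory markers. Of 12 markers of layers 2 to 4, 8 fell (median of the list -0.77), among them Otof, a calcium sensor of exocytosis (-1.64 ± 0.41), Rorb, the layer 4 nuclear receptor (-0.89 ± 0.18), and the calcium buffer Calb1 (-0.86 ± 0.21). Lamp5, a membrane protein of upper-layer and some inhibitory neurons, was at 117, 84.9 and 109 CPM in control IP and 21.5, 33.3 and 56.003 CPM in tumor IP. Pou3f1 went the other way, from 26.8 ± 3.21 to 78.3 ± 10.1 CPM (mean ± SD, n = 3; 1.54 ± 0.13). This POU factor is also known in the oligodendrocyte lineage. Of 17 markers of layers 5 and 6, 9 fell (52.9%, against 22.7% of all genes tested) and 4 rose (23.5%, against 26.1%). The median of the list was -0.54. Ntsr1, the neurotensin receptor of layer 6 neurons (-1.17 ± 0.20), and Crym (-0.998 ± 0.14) fell. Tshz2, a zinc finger factor of near-projecting neurons, rose (1.69 ± 0.26), as did Etv1 (0.52 ± 0.11), which is also an ERK-responsive factor, and their levels in input moved by 1.43 and 0.79.

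The glutamate receptors split by subunit. AMPA receptors carry fast excitation and their auxiliary proteins set their gating and delivery. Of the 4 AMPA subunits, Gria1 fell (-0.88 ± 0.10), Gria4 rose, and the most abundant, Gria2, which makes the channel impermeable to calcium, was at 1473, 1324 and 1312 CPM in control IP and 1014, 1040.2 and 1222 CPM in tumor IP and did not pass (-0.33 ± 0.12, adjusted p = 0.0535; it passed in DESeq2 and in 7 other alternatives). Gria4 was at 182, 179.7 and 185 CPM in control IP and 424, 377 and 406 CPM in tumor IP, so every tumor library was above every control (1.14 ± 0.09, adjusted p = 2.83e-05). Of the 12 auxiliary proteins 8 fell, with the TARP proteins Cacng3 at -1.12 ± 0.19 and Cacng2, stargazin, at -1.07 ± 0.15, and 1 rose. This was Cacng4, a TARP also found in oligodendrocyte precursors, which went from 9.96 ± 0.783 to 66.6 ± 4.09 CPM (2.74 ± 0.10).

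NMDA receptors admit calcium when glutamate and depolarisation coincide. Grin2b was at 574, 527 and 506 CPM in control IP and 173, 271 and 268 CPM in tumor IP (-1.17 ± 0.17, adjusted p = 0.000933). The obligatory subunit Grin1 (-0.84 ± 0.12) and Grin2a (-1.12 ± 0.15) fell too, and Grin3a, a subunit that lowers calcium entry, rose from 80.3 ± 5.74 to 165 ± 12.4 CPM (1.04 ± 0.10). In all, 5 of 7 NMDA subunits fell and 1 rose. No kainate subunit was called lower: 2 of 5 rose, with Grik4 at 0.85 ± 0.17, and the other 3 did not pass. Of 7 metabotropic receptors 6 fell, most of all the presynaptic autoreceptor Grm2, at 35.8, 24.9 and 27.2 CPM in control IP and 8.35, 11.5 and 11.1 CPM in tumor IP (-1.50 ± 0.17).

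The scaffold that holds these receptors at the postsynaptic density fell in 15 of 25 genes and rose in 3 (median -0.68). The shares were 60% and 12%, against 22.7% and 26.1% of all genes tested. Shank1, a master scaffold of spines (-1.27 ± 0.20), Dlgap3 (-1.03 ± 0.15) and Dlg4, which encodes PSD-95 (-0.94 ± 0.12), were among those that fell. The 3 risers were Homer3, a Homer scaffold protein (1.05 ± 0.16), and a pair of adhesion proteins. Nlgn3, a neuroligin that glioma cells are known to respond to, rose from 134 ± 10.8 to 195 ± 10.05 CPM (0.54 ± 0.09), and Lrrtm3 rose by 0.36 ± 0.09. Nlgn2, the neuroligin of inhibitory synapses, did not pass (0.19 ± 0.10).

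The receptors for GABA, the main inhibitory transmitter, fell in 13 of 14 genes, with none called higher (median -0.85). Gabrb2, a common beta subunit of the chloride-conducting GABA-A receptor, was at 1009, 914 and 871 CPM in control IP and 344, 539 and 611 CPM in tumor IP. The tumor libraries were all lower, and the log2 fold was -0.90 ± 0.20 (adjusted p = 0.00597). Gabra5 (-0.79 ± 0.10), an extrasynaptic subunit, and the metabotropic subunits Gabbr1 (-0.73 ± 0.12) and Gabbr2 (-0.86 ± 0.12) fell as well. Gabrd, the subunit of tonic inhibition, went from 63.7 ± 4.33 to 27.6 ± 14.5 CPM (-1.19 ± 0.32), and its adjusted p of 0.0146 rose to 0.0553 without control IP replicate 1 and 0.0576 without tumor IP replicate 2. Gabrg1, which is also found in glia, did not pass (-0.29 ± 0.11, adjusted p = 0.056; upper quartile scaling, DESeq2 and the filter at 5 CPM called it lower).

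Whether GABA inhibits depends on the chloride gradient, which a pair of cotransporters sets. Slc12a5 encodes KCC2, the neuronal exporter of chloride, and was at 652, 562 and 552 CPM in control IP and 199, 270.2 and 325 CPM in tumor IP (-1.15 ± 0.18, adjusted p = 0.00112). Slc12a2 encodes NKCC1, the importer, and was at 133, 158 and 132 CPM in control IP and 262, 194 and 228 CPM in tumor IP (0.69 ± 0.13, adjusted p = 0.00321). The groups did not overlap for either gene, as for 61.5% of all genes tested, and the directions were opposite. NKCC1 is also made by glia and precursors, and in input the folds were -1.21 for Slc12a5 and 0.76 for Slc12a2. Of the kinases and channels that act on chloride, Wnk2 fell (-0.86 ± 0.13), Ano6 rose (1.42 ± 0.18) and the kinase Stk39 was at -0.16 ± 0.09 and did not pass.

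**Figure D3:**
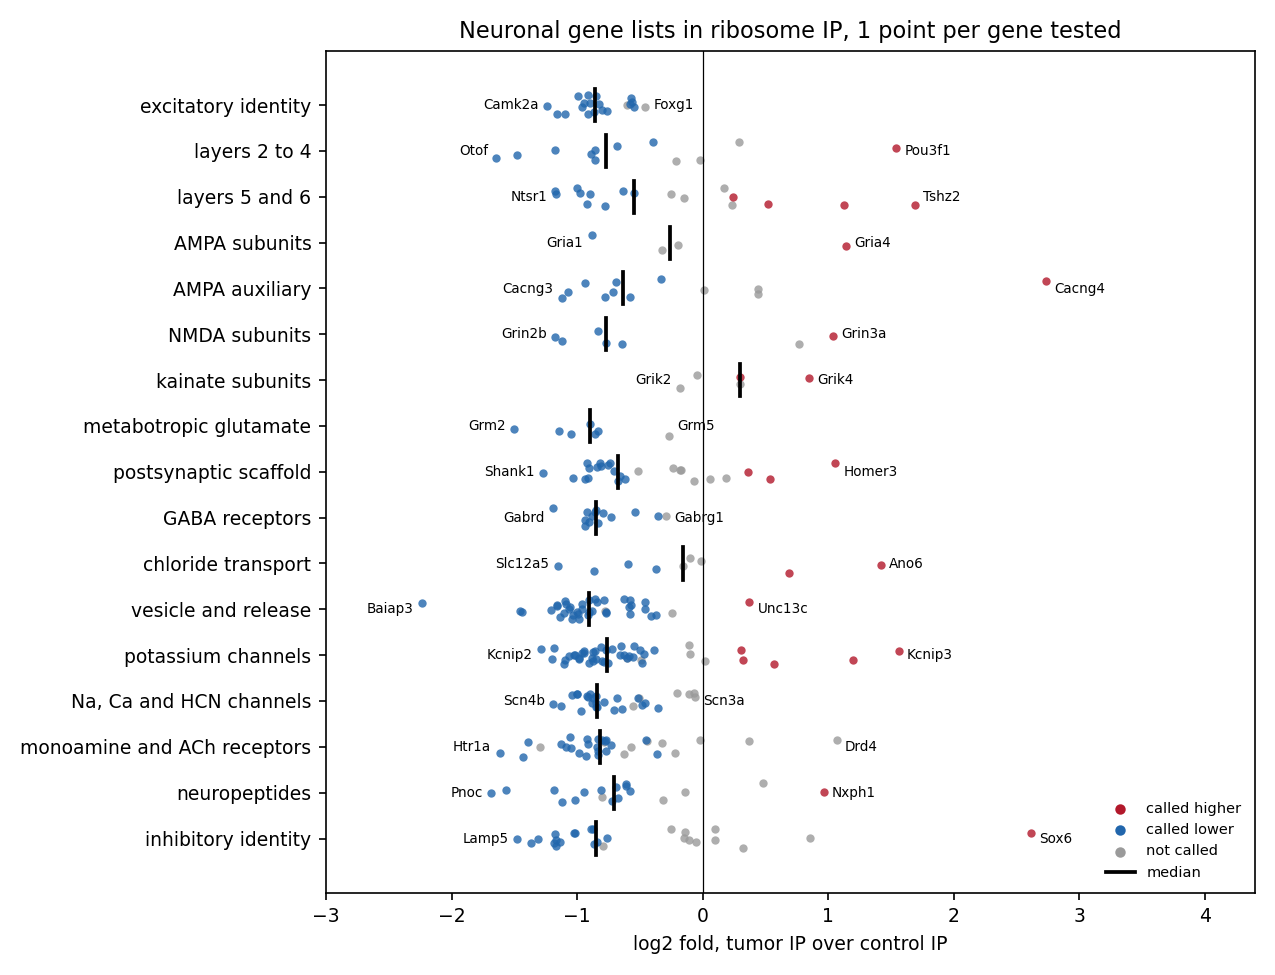
Log2 fold of tumor IP over control IP (x axis) for the genes tested of 17 neuronal lists (y axis), 1 point per gene, red for called higher, blue for called lower and grey for not called, with the list's median as a black bar and the highest and lowest gene named. Medians lay below 0 in 16 of the 17 lists, kainate receptor subunits being the exception at 0.30, and single genes such as Cacng4 (2.74), Sox6 (2.62), Tshz2 (1.69) and Kcnip3 (1.56) lay far to the right of their list.

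In transmitter release 37 of 40 genes fell and 1 rose (median -0.91). Vamp2, the SNARE protein of the vesicle, was at 488, 414 and 391 CPM in control IP and 166, 239.7 and 213 CPM in tumor IP (-1.06 ± 0.15, adjusted p = 0.000804). The vesicle proteins Sv2a (-0.91 ± 0.14) and Syngr1 (-0.84 ± 0.12) and the calcium sensor Syt7 (-1.03 ± 0.12) fell too. Baiap3, a relative of the Unc13 proteins that acts on dense-core vesicles, had the largest fall of the list, at 20.3, 39.1 and 18.98 CPM in control IP and 4.82, 5.66 and 6.004 CPM in tumor IP (-2.24 ± 0.28). Syt2 (-1.45 ± 0.33), the sensor of fast-spiking interneurons, and Rph3a, rabphilin (-1.44 ± 0.26), followed. Neuropeptide genes fell in 13 of 18 cases, with Cartpt at -1.57 ± 0.34 and Pnoc, the precursor of nociceptin, at -1.68 ± 0.25, and Nxph1, a secreted neurexin ligand counted in that list, rose (0.97 ± 0.11).

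Among voltage-gated and other potassium channels, which repolarise the membrane, 36 of 46 genes fell and 5 rose (median -0.76). Kcnip2, a subunit of A-type channels, was at 96.8, 103 and 113 CPM in control IP and 23.1, 45.6 and 58.8 CPM in tumor IP (-1.29 ± 0.28). Kcnc2, of the Kv3 channels of fast-spiking cells (-1.18 ± 0.22), Kcnh7 (-1.20 ± 0.26) and the GIRK channel gene Kcnj6 (-0.94 ± 0.10) also fell. Among the 5 that rose were Kcnj16 (1.20 ± 0.11), an inward rectifier of glia, and Kcnip3, or DREAM, which was at 139, 117 and 111 CPM in control IP and 354, 397 and 335 CPM in tumor IP (1.56 ± 0.12).

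Of 29 sodium, calcium and HCN channel genes 23 fell and none rose (median -0.84). Scn8a, of the axon initial segment (-0.998 ± 0.16), Scn1a (-0.92 ± 0.23), and the T-type channel Cacna1i (-1.12 ± 0.14) were near a log2 fold of -1. Pex5l, a protein that binds HCN channels and sets their place in the membrane, was at 334, 285 and 300.0 CPM in control IP and 113, 158 and 175 CPM in tumor IP. The tumor libraries were all lower (-1.04 ± 0.16).

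Receptors for serotonin, dopamine, noradrenaline and acetylcholine, through which subcortical inputs tune cortical neurons, fell in 22 of 32 genes, with none rising (median -0.82). Htr1a, an inhibitory serotonin receptor, was at 29.7, 27.96 and 27.4 CPM in control IP and 5.04, 9.15 and 13.1 CPM in tumor IP (-1.62 ± 0.27, adjusted p = 0.00182), so the tumor libraries ranged widely below the controls. Htr7 (-1.43 ± 0.32), Chrm1, the main muscarinic receptor of cortex (-1.05 ± 0.15), and Adra1d (-0.99 ± 0.16) also fell. The cytoskeleton of axons fell with them: all 4 neurofilament genes fell, with Nefm at 75.1, 52.5 and 61.3 CPM in control IP and 13.004, 25.4 and 29.1 CPM in tumor IP (-1.47 ± 0.27). Of the 15 microtubule genes 9 fell (60%, against 22.7% of all genes tested), such as Map1a (-1.14 ± 0.22), and 4 rose (26.7%, against 26.1%). Among the risers were Tubb6 (2.83 ± 0.52), Tubb2b (1.75 ± 0.13) and Dcx, doublecortin of migrating cells (1.28 ± 0.20).

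Immediate-early genes, which neurons switch on within minutes of activity and other cells after growth factors, had a median above 0: 25 of 46 rose and 3 fell (median 1.03). Trib1, a pseudokinase, was at 17.7, 10.7 and 10.5 CPM in control IP and 184, 102 and 98.4 CPM in tumor IP (3.30 ± 0.30, adjusted p = 6.57e-05). Maff (4.03 ± 0.46), Cyr61 (3.09 ± 0.37), Atf3 (3.07 ± 0.36) and Tiparp (1.60 ± 0.11) rose as well, genes that many cell types induce. Arc, the activity-induced capsid-like protein of dendrites, was at 102, 55.7 and 39.3 CPM in control IP and 41.7, 286 and 97.7 CPM in tumor IP, with tumor IP replicate 2 far above the rest, and did not pass (1.11 ± 0.62, adjusted p = 0.166). Its log2 fold was 0.12 without tumor IP replicate 2 (adjusted p = 0.848) and 1.57 without tumor IP replicate 1 (adjusted p = 0.0117). Bdnf was at 0.48 ± 0.18 (adjusted p = 0.0524), and Nptxr, a pentraxin receptor of synapses, fell (-0.91 ± 0.12).

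Genes of the oligodendrocyte-precursor lineage, which many gliomas resemble, rose in 30 of 35 cases with none falling (median 1.90). Pdgfra, the receptor tyrosine kinase of that lineage (chromosome 5, 75151322 to 75198206, GRCm38), was at 117, 83.4 and 77.3 CPM in control IP and 2571, 1917 and 2271 CPM in tumor IP (4.60 ± 0.21, adjusted p = 1.55e-06). Its level in tumor IP was above that of Camk2a in every tumor library, on a scale not corrected for length. Cspg4, or NG2 (4.51 ± 0.14), the matrilin Matn4 (4.21 ± 0.24) and the protocadherin Pcdh15 (3.16 ± 0.13) rose. Among transcription factors Olig2 was at 15.9, 16.8 and 16.5 CPM in control IP and 165, 219.9 and 218 CPM in tumor IP (3.62 ± 0.13), and Sox10 (3.48 ± 0.11) and Olig1 (3.33 ± 0.12) rose. Opcml and Id2, which other cells also make in quantity, did not pass (-0.13 and 0.30). Genes of neural progenitors rose in 11 of 20 cases and fell in 1, the risers including the intermediate filament Nes (3.66 ± 0.27), the lipid carrier Fabp7 (3.98 ± 0.14) and the chromatin protein Hmga2 (5.82 ± 0.95).

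Genes that copy and divide the chromosomes were higher in tumor IP. Of 48 mitotic genes 46 rose and 1 fell (median 3.97), and of 38 replication genes 36 rose and none fell (median 1.70). Top2a, which untangles chromosomes, was at 7.01, 4.21 and 4.26 CPM in control IP and 215, 216 and 211 CPM in tumor IP (5.36 ± 0.20, adjusted p = 7.2e-07), so the tumor libraries were within a few percent of each other. Cdk1, the kinase that starts mitosis, was at 0.951, 0.482 and 0.419 CPM in control IP and 30.04, 33.9 and 32.4 CPM in tumor IP (5.65 ± 0.24). Mki67, the proliferation antigen (4.76 ± 0.18), Ccna2, cyclin A (4.69 ± 0.14), and the kinesin Kif2c (5.14 ± 0.20) rose as well. Among replication genes the ribonucleotide reductase subunit Rrm2 rose by 3.38 ± 0.16, the helicase subunit Mcm3 by 3.20 ± 0.18 and Uhrf1, which maintains DNA methylation, by 4.41 ± 0.28. Pttg1, securin, was the gene of the mitotic list that fell (-0.76 ± 0.13).

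The promoters of mitotic genes are known for CCAAT boxes and the CHR element, which the DREAM and MYB complexes read. In the 250 bases before the annotated start (RefSeq, GRCm38.p6; 1 promoter per gene, the first listed), the letters CCAAT on either strand were found in 28 (71.8%) of the 39 risers of the mitotic list that have a promoter there and in 36.0% of the promoters of 12050 genes tested. TTTGAA, the CHR letters, were in 11 (28.2%) and in 10.6%. The E2F letters TTTGGCGC were in 3 (10%) of 30 risers of the replication list and in 0.788%, and the variant TTTCCCGC in 3 (10%) and in 1.68%. The CRE letters TGACGTCA were in 0 of 18 risers of the immediate-early list and in 2.64%. A match describes these letters only. The promoters of Kif11 (chr19:37376132-37376381, plus strand) and Cdk1 (chr10:69352913-69353162, minus strand) are shown because they have the smallest adjusted p of the list's members that hold both elements and whose annotated start is the outer end of the gene. Each is given 5′ to 3′ on its gene's strand and ends at the base before the start, with CCAAT (or ATTGG, its reverse) and TTTGAA (or TTCAAA) in capitals; no 2 matches overlap.
Kif11: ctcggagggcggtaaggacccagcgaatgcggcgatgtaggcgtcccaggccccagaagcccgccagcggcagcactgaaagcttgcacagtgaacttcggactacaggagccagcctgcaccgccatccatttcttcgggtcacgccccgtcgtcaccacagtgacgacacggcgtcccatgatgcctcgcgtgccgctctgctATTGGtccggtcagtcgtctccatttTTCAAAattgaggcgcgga
Cdk1: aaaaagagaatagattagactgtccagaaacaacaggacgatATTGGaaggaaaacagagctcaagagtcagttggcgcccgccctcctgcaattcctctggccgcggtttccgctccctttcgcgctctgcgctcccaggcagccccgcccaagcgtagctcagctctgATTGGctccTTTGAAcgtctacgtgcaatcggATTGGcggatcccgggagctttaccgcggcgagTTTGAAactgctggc
In Cdk1 the 3 CCAAT boxes begin 208, 80 and 48 bases before the start and the 2 CHR letters 71 and 15. In Kif11 the single matches begin 45 and 19 bases before it.

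Of 19 regulators of G1 11 rose and 2 fell (median 2.10). Ccnd1, the cyclin that growth factors induce, was at 86.5, 58.2 and 62.6 CPM in control IP and 1072, 1114 and 892 CPM in tumor IP (3.89 ± 0.19), and its partners Cdk4 (2.10 ± 0.13) and Ccnd2 (2.41 ± 0.14) rose. E2f7 (4.11 ± 0.38) and Cdk2 (3.90 ± 0.18) rose by more. Several inhibitors of the same kinases rose too. Cdkn2a, the gene of p16INK4a and ARF (chromosome 4, 89274473 to 89294619), was at 0.793, 0.0438 and 0.035 CPM in control IP and 37.9, 24.8 and 16.7 CPM in tumor IP (6.35 ± 0.65, adjusted p = 0.000129), and control IP replicate 1 held the highest control value. Cdkn2a would not have passed the filter on low counts by its control IP libraries alone, so its rise is given as a description. Its neighbour Cdkn2b (chromosome 4, 89306289 to 89311032) went from 1.07 ± 0.949 to 39.96 ± 38.3 CPM (5.13 ± 0.81), Cdkn2c from 2.01 ± 0.402 to 30.2 ± 5.06 CPM (3.90 ± 0.19). In all 12 of 25 genes of p53 and the CDK inhibitors rose and 3 fell (48% and 12%, against 26.1% and 22.7% of all genes tested). The p53 targets Bax (0.76 ± 0.10) and Trp53inp1 (1.55 ± 0.09) rose, and Ccng1 fell (-0.40 ± 0.10).

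The homeobox gene Meox1, a factor of somites in the embryo, had the largest log2 fold of the genes with a mean of at least 10 CPM, at 0.793, 0.219 and 0.315 CPM in control IP and 48.9, 32.98 and 57.3 CPM in tumor IP (6.63 ± 0.37, adjusted p = 3.44e-06). Meox1 would not have passed the filter on low counts by its control IP libraries alone, so its rise is given as a description. Prrx1 (3.58 ± 0.20) rose as well, and 10 of 17 homeobox genes tested rose and 3 fell; 36 were listed in the table, and 5 of the 10 are Hoxa genes, so the count is a description. Among the HOX genes, which pattern the hindbrain and trunk and are largely silent in forebrain, only members of the A cluster passed the filter on low counts. Of 11 Hoxa genes in the table (chromosome 6, GRCm38), 6 passed that filter. They passed it through the tumor IP libraries alone, so that each is higher there follows from the filter and is given as a description. The cluster held 10 counts in the 3 control IP libraries together and 950 in the 3 tumor IP libraries. The B, C and D clusters held 12, 6 and 12 counts in control IP and 17, 28 and 35 in tumor IP, and none of their genes was tested. Hoxa5 (52201754 to 52204587) had 4, 0 and 0 counts in control IP and 98, 96 and 164 in tumor IP. Hoxa4 (52189682 to 52191703) had 0 counts in control IP and 40, 42 and 42 in tumor IP, at least 47.3-fold higher with the group's 0 replaced by 3 counts in all as an upper limit, for counting error alone. Hoxa2 was at least 24.4-fold higher by the same limit and Lhx4, a LIM homeobox gene of pituitary and motor neurons, at least 33.6-fold. Hoxa4 and Lhx4 were chosen after their values were seen, as genes with 0 counts in every control IP library. Lhx4 too passed the filter through the tumor IP libraries alone.

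Other genes with the largest folds were a mixed group. Pnlip, pancreatic lipase, was at 3.52, 0.614 and 0.28 CPM in control IP and 179, 116 and 104 CPM in tumor IP (6.41 ± 0.63), Tecta, a protein of the tectorial membrane, at 0.444, 0.307 and 0.559 CPM in control IP and 29.5, 15.9 and 24.1 CPM in tumor IP (5.69 ± 0.31), and the prokineticin receptor Prokr1 at 1.24, 0.175 and 0.14 CPM in control IP and 58.97, 8.84 and 7.88 CPM in tumor IP (5.48 ± 1.05). Like Meox1, Pnlip, Tecta and Prokr1 would not have passed the filter on low counts by their control IP libraries alone, so their rises are given as a description. The tumor libraries differed for Prokr1, with replicate 1 far above the other 2. Hhipl2 (6.08 ± 0.68), Dmrta1, a neighbour of Cdkn2b on chromosome 4 (5.54 ± 0.44), and the spindle orientation gene Sapcd2 (5.47 ± 0.17) rose. At the other end Zic1, a zinc finger factor of the forebrain midline (-1.61 ± 0.22), Cxcl12, a chemokine that guides interneurons (-1.44 ± 0.33), Ankrd63 (-1.41 ± 0.24) and AI593442 (-1.43 ± 0.33) fell. The rule that picked these highest and lowest folds took only called genes without overlap between the groups, so its absence is no added result.

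Growth-factor genes moved in both directions, 10 up and 12 down of 39 (25.6% and 30.8%, against 26.1% and 22.7% of all genes tested; 9 and 5 without control IP replicate 2). Of the PDGF system, the ligand gene Pdgfa rose from 14.2 ± 1.61 to 65.6 ± 31.1 CPM (2.20 ± 0.30) along with Pdgfra, and Pdgfb and Pdgfrb did not pass (-0.28 and -0.25). Igfbp3 (4.06 ± 0.39), Erbb3 (2.998 ± 0.16) and Tgfa (1.84 ± 0.17) rose, and Fgf9, a factor made by neurons (-1.02 ± 0.18), and Igf2 (-1.38 ± 0.18) fell. Feedback genes that the ERK kinase induces rose in 11 of 14 cases and fell in 1 (median 0.99). The risers included Etv4 (4.31 ± 0.22), Spry1 (4.06 ± 0.28), Spry4 (4.002 ± 0.21) and the ERK phosphatase Dusp6, at 92.8, 56.7 and 55.7 CPM in control IP and 275, 251 and 241 CPM in tumor IP (1.90 ± 0.20). Of 53 genes of the TGF-beta, WNT, Notch and hedgehog pathways 16 rose (30.2%, against 26.1% of all genes) and 5 fell, Jag2 (-0.81 ± 0.12) and Dkk3 (-0.73 ± 0.15) among them. Notch genes among the risers were the ligands Dll3 (4.57 ± 0.20), Jag1 (2.96 ± 0.09) and Dll1 (1.70 ± 0.15) and the receptor Notch1 (1.86 ± 0.11).

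The extracellular matrix rose in part. Of 18 collagen genes 13 rose and none fell (median 1.71). Col11a1, a fibril collagen, was at 8.72, 5.13 and 4.65 CPM in control IP and 373, 207 and 182 CPM in tumor IP (5.35 ± 0.36), Col9a1, of cartilage, at 0.539, 0.526 and 0.524 CPM in control IP and 15.5, 11.6 and 15.8 CPM in tumor IP (4.74 ± 0.20), and the basement-membrane gene Col18a1 rose by 2.88 ± 0.22. Of the laminins and other matrix genes 12 of 22 rose and 2 fell, the risers led by Postn, periostin (4.10 ± 0.43). Of 14 genes of the hyaluronan matrix, which forms nets around neurons, 9 rose and 2 fell. The lectican Vcan, versican, was at 22.4, 38.2 and 25.3 CPM in control IP and 572, 284 and 378 CPM in tumor IP (3.85 ± 0.30), Has2, which makes hyaluronan, rose by 4.76 ± 0.75, and Tnc, tenascin C, by 3.46 ± 0.40. Hapln4, the link protein of nets around inhibitory synapses, fell (-0.79 ± 0.17).

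Other glia and vessels were described by their markers. Of 20 homeostatic astrocyte genes 12 fell and 2 rose, and of 19 reactive genes tested 13 rose and none fell (medians -0.47 and 2.21). Gja1, the gap junction protein of astrocytes, was at 154, 170.1 and 163 CPM in control IP and 61.6, 97.3 and 86.3 CPM in tumor IP (-0.99 ± 0.16), while Aqp4, the water channel, rose (0.77 ± 0.13). Gfap, the filament of reactive astrocytes, was at 83.99, 87.7 and 84.1 CPM in control IP and 456, 479 and 247 CPM in tumor IP (2.21 ± 0.23). Vim (3.04 ± 0.25), Emp1 (2.22 ± 0.36) and Socs3 (3.28 ± 0.70) rose, genes that glioma cells can also express. The reactive sum lay from 222 to 301 CPM in control IP and from 609.8 to 1599 CPM in tumor IP, highest in tumor IP replicate 1. Of 20 markers of mature oligodendrocytes 13 fell and 3 rose (7 and 3 without control IP replicate 3), with the myelin genes Mog (-1.25 ± 0.28) and Mal (-1.25 ± 0.31) down. The risers were Gjc3 (1.99 ± 0.17), Bcas1 (1.93 ± 0.12) and Ugt8a (1.20 ± 0.09), of which Bcas1 marks cells that begin to make myelin.

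Microglia, vessels and lymphocytes were described in the same way. Of 20 homeostatic microglial genes 4 fell (20%, against 22.7% of all genes tested) and 2 rose (10%, against 26.1%). C1qa, a complement gene of microglia, was at 28.6, 25.8 and 34.7 CPM in control IP and 30.7, 34.2 and 31.8 CPM in tumor IP with overlap (0.12 ± 0.12, adjusted p = 0.447). Of 17 genes of activated or infiltrating cells 7 rose (41.2%) and 3 fell (17.6%), with Clec7a (4.41 ± 0.90), Itgax (4.24 ± 0.36) and Cd163 (1.39 ± 0.19) among the risers and a lowest fold of -0.80. Their sum lay from 731 to 797 CPM in control IP and from 605 to 743 CPM in tumor IP. Of all 37 microglia and macrophage genes tested 24.3% rose and 18.9% fell, near the 26.1% and 22.7% of all genes tested. Of 17 T and NK cell genes listed, 2 passed the filter on low counts, and the 17 summed to at most 10.3 CPM in a tumor IP library. Of 20 endothelial genes 2 rose and 2 fell (10% and 10%, below the 26.1% and 22.7% of all genes tested). Genes of the striatum, which lies below the cortex, summed to 671 CPM in tumor IP replicate 1, against 1514 and 1591 in replicates 2 and 3 and 1869 to 2317 in control IP.

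**Figure D4:**
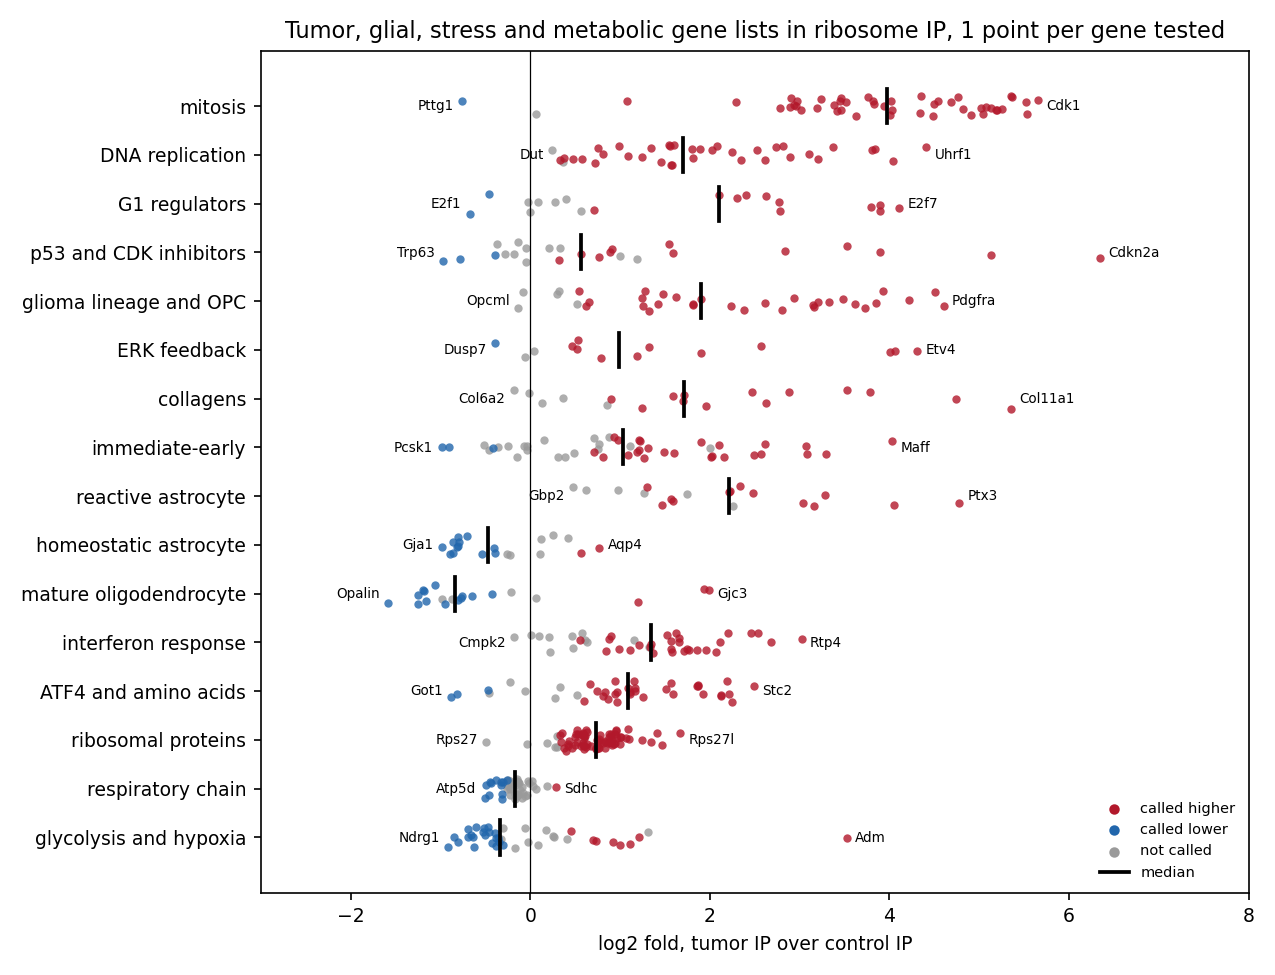
Log2 fold of tumor IP over control IP (x axis) for the genes tested of 16 tumor, glial, stress and metabolic lists (y axis), 1 point per gene, red for called higher, blue for called lower and grey for not called, with the median as a black bar and the highest and lowest gene named. The mitotic median was 3.97 and that of the respiratory chain -0.17, and the medians of homeostatic and reactive astrocyte genes lay on opposite sides of 0.

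Interferon-response genes, which cells switch on when they sense interferon or foreign nucleic acid, rose in 29 of 41 cases with none falling (median 1.35). The effector Ifit2 was at 21.6, 21.3 and 20.7 CPM in control IP and 69.6, 71.1 and 60.5 CPM in tumor IP (1.66 ± 0.10), and Rtp4 rose by 3.02 ± 0.32 and Gbp3 by 2.20 ± 0.26. Among sensors and factors Usp18, the brake on the interferon receptor (2.68 ± 0.44), Irf8 (2.53 ± 0.39), Irf1 (1.57 ± 0.20) and Ddx58, or RIG-I (2.11 ± 0.21), rose. The list's sum was 728, 424 and 474 CPM in tumor IP replicates 1 to 3, against 238 to 262 in control IP. Of 22 antigen-presentation genes 11 rose and none fell, such as B2m, the light chain of class I (0.88 ± 0.15), Tap1, the peptide transporter (1.62 ± 0.31), and H2-K1 (0.91 ± 0.16). The chemokine genes Cxcl10 (4.05 ± 0.99) and Cxcl16 (1.24 ± 0.28) rose, Cx3cl1, a neuronal chemokine, fell (-1.15 ± 0.18), and the complement gene C4b went from 13.5 ± 0.977 to 93.3 ± 30.6 CPM (2.78 ± 0.24).

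The element through which interferon acts is the ISRE. Its letters, GAAA, any 2 bases and GAAA again, on either strand of the 250 bases before the start, were in 8 (36.4%) of 22 risers of the interferon list with a promoter in the table and in 2.46% of the 12050 promoters. Shown are the members with the smallest adjusted p that hold it and whose annotated start is the outer end of the gene, Gbp7 (chr3:142530086-142530335, plus strand), a guanylate-binding GTPase, and Ifit1 (chr19:34640639-34640888, plus strand), with the ISRE letters, here in reverse, in capitals.
Gbp7: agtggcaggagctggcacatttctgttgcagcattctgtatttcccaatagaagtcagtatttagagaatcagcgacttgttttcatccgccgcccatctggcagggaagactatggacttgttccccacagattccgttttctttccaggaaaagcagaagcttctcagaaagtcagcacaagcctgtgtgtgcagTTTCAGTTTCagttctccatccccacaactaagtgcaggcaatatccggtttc
Ifit1: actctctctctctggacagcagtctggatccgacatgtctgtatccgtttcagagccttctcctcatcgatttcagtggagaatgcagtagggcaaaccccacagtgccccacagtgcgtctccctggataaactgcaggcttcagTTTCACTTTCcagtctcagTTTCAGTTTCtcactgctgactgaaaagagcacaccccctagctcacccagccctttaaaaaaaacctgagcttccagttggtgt
Gbp7 was at 8.15, 8.02 and 9.05 CPM in control IP and 34.02, 16.8 and 14.7 CPM in tumor IP (1.37 ± 0.29). Ifit1 was at 3.23, 2.85 and 3.36 CPM in control IP and 18.8, 5.75 and 7.97 CPM in tumor IP (1.77 ± 0.40).

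Genes of the integrated stress response and of amino acid synthesis and transport, some of them targets of the factor ATF4, rose in 30 of 39 cases. In this list 3 fell (median 1.09). Ddit4, a stress-induced inhibitor of mTOR, was at 14.4, 13.2 and 13.6 CPM in control IP and 29.6, 29.6 and 29.9 CPM in tumor IP (1.11 ± 0.09). Among the enzymes of serine and one-carbon synthesis Mthfd2 (2.19 ± 0.20), Shmt1 (2.25 ± 0.20) and Psat1 (1.25 ± 0.11) rose, and Got1, the aspartate aminotransferase that neurons make in quantity, fell (-0.88 ± 0.14). Of 11 amino acid transporters 8 rose and 1, Slc7a8, fell (-0.81 ± 0.13), with Slc7a5, the large neutral transporter, at 37.1, 36.4 and 37.2 CPM in control IP and 183, 115 and 108 CPM in tumor IP (1.87 ± 0.19). Slc7a11, the cystine-glutamate exchanger through which gliomas release glutamate, was at 118, 110.4 and 123 CPM in control IP and 109.5, 94.5 and 97.5 CPM in tumor IP and did not pass (-0.22 ± 0.09, adjusted p = 0.0762; upper quartile scaling, DESeq2 and the fit without tumor IP replicate 1 called it lower). The letters of the ATF4 element CARE, TGATGNAA, were in 3 (11.5%) of 26 risers with a promoter and in 2.01% of all. They are in capitals in Pycr1 (chr11:120643749-120643998, minus strand), a proline synthesis enzyme, and Nupr1 (chr7:126625471-126625720, minus strand), a stress protein, chosen as above.
Pycr1: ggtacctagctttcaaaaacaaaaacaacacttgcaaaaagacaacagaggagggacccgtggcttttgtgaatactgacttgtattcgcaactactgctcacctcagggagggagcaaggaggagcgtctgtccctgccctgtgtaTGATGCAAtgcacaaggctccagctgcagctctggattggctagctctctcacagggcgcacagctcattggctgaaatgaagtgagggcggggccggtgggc
Nupr1: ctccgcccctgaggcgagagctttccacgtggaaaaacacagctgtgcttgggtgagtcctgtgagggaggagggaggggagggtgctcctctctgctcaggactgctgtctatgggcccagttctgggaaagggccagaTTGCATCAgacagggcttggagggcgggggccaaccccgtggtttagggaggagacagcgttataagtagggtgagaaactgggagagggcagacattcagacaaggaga
Pycr1 went from 1.45 ± 0.382 to 5.32 ± 2.05 CPM (1.87 ± 0.32) and Nupr1 from 2.39 ± 0.217 to 5.37 ± 1.64 CPM (1.16 ± 0.25).

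The translation machinery rose in part. Of 76 cytosolic ribosomal protein genes tested 70 rose and none fell (median 0.73), although their sum differed between the tumor libraries, at 9417, 7082 and 7031 CPM against 4615 to 5250.3 in control IP. Rpl22, the gene of the tagged protein, was at 55.9, 49.6 and 48.1 CPM in control IP and 182, 117 and 124 CPM in tumor IP (1.46 ± 0.17, adjusted p = 0.000252). Reads of ribosomal protein genes can be shared with processed pseudogenes, so their levels are uncertain. Of 52 translation factors 24 rose and 4 fell (15 and 3 without control IP replicate 3). The shares were 46.2% and 7.69%, against 26.1% and 22.7% of all genes tested. The elongation factor pair differed: Eef1a1 was at 1089, 952 and 942 CPM in control IP and 2060.4, 1829 and 1694 CPM in tumor IP (0.90 ± 0.13), and Eef1a2, the form of mature neurons, at 656, 564 and 595 CPM in control IP and 301, 393 and 347 CPM in tumor IP (-0.80 ± 0.13). Eif4ebp1, the repressor that mTOR inactivates (2.12 ± 0.37), and Pabpc1 (0.88 ± 0.10) rose. Of 20 aminoacyl-tRNA synthetases 12 rose, such as Tars (1.09 ± 0.17) and Mars (0.89 ± 0.14), and 1 fell.

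Of 58 genes of the mTOR and PI3K pathway, which the study's drug targets, 11 rose and 18 fell (19% and 31%, against 26.1% and 22.7% of all genes tested). Without 1 control IP library the counts were 8 and 9 (replicate 1), 7 and 7 (replicate 2) and 8 and 11 (replicate 3). Grb10, an adaptor that mTOR stabilises (-0.88 ± 0.22), and the AMPK subunit Prkaa2 (-0.72 ± 0.18) fell, and the PI3K subunit Pik3r1 (0.84 ± 0.15), Inpp4b (1.14 ± 0.12) and Irs1 (0.78 ± 0.11) rose. Of 22 glycolytic genes 14 fell and 2 rose, with Gapdh at -0.80 ± 0.12 and Eno2, the neuronal enolase, at -0.85 ± 0.17. The hypoxia targets split, 6 up and 7 down of 18 (33.3% and 38.9%, against 26.1% and 22.7% of all genes tested), with Adm, adrenomedullin (3.52 ± 0.42), up and Ndrg1 (-0.92 ± 0.19) down. Of 47 nuclear genes of the respiratory chain 12 fell (25.5%, against 22.7% of all genes tested), by at most 0.50 on the log2 scale, and 1 rose. The number that fell was 6 without control IP replicate 1 or control IP replicate 3, 7 with the replicate block and 21 with upper quartile scaling. Of 25 cholesterol genes 12 rose (48%, against 26.1% of all genes tested), with Sqle, the squalene epoxidase, at 1.19 ± 0.13, and 1 fell (4%, against 22.7%). The chaperone list gave 7 up and 5 down of 36 (19.4% and 13.9%, below the 26.1% and 22.7% of all genes tested), with the HSP70 partner Bag3 up (2.22 ± 0.17) and Hsph1 down (-0.82 ± 0.17).

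The same contrast in input RNA gave 3804 genes higher (25.4%) and 3078 lower (20.6%) of 14975 tested; with upper quartile scaling the input split was 3136 and 3948. Of the genes higher in tumor IP 3334 were higher in input (83.2% of the IP calls, 87.6% of the input calls), and of those lower 2495 were lower in input (71.7% and 81.1%). Calls in opposite directions numbered 11. The medians of the lists in the 2 fractions were -0.86 in IP and -0.89 in input for excitatory markers, -0.91 and -0.93 for vesicle and release genes, 3.97 and 4.29 for mitosis and 1.35 and 1.39 for interferon genes. For the glioma lineage they were 1.90 and 2.38, for collagens 1.71 and 1.06 and for the respiratory chain -0.17 and -0.06; the difference between fractions was not tested for a list as a whole.

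A test of the difference itself, tumor change in IP minus tumor change in input over 12 libraries, called 10 of 15775 genes (0.0634%), 6 with a higher fold in IP (0.038%) and 4 with a lower one (0.0254%); 535 genes had an unadjusted p under 0.05. Input and IP libraries of the same number deviated together (correlations of 0.193 to 0.244 in control and 0.498 to 0.744 in tumor). With condition and replicate number together as a block, 112 genes (0.71%) were called, 92 higher (0.583%) and 20 lower (0.127%). DESeq2 called 45. Input and IP libraries carry names of different sets, so set and fraction cannot be told apart. Myh9, a nonmuscle myosin heavy chain (chromosome 15, 77760585 to 77842175), was at 74.7, 65.7 and 69.5 CPM in control IP and 444, 499 and 469 CPM in tumor IP (2.75 ± 0.10), while its log2 fold in input was 0.81, a difference of 1.96 ± 0.18 (adjusted p = 0.00119). Syne2, a nuclear envelope protein, rose by 1.74 ± 0.09 in IP and by 0.47 in input (difference 1.29). Dst, dystonin, a linker of the cytoskeleton, was at 741, 628 and 719 CPM in control IP and 1729, 1821 and 1707 CPM in tumor IP, with a log2 fold of -0.23 in input that was not called (difference 1.58). Limch1, an activator of nonmuscle myosin, rose in IP (1.58 ± 0.17) with a fold of 0.00 in input (difference 1.60). Gtl3 and Rgl2 differed by 1.88 and 0.99. Nusap1 and Kif20a, of the mitotic spindle, rose in both fractions and by less in IP (differences -1.71 and -1.84). With the block, Col11a1 (5.35 in IP, 3.85 in input) was among 7 collagen genes called, against 0 of 18 without it. The count of 10 was 0 without control replicate 2 or control replicate 3, 2 without tumor replicate 2, 4 without control replicate 1, 6 without tumor replicate 3 and 34 without tumor replicate 1.

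**Figure D5:**
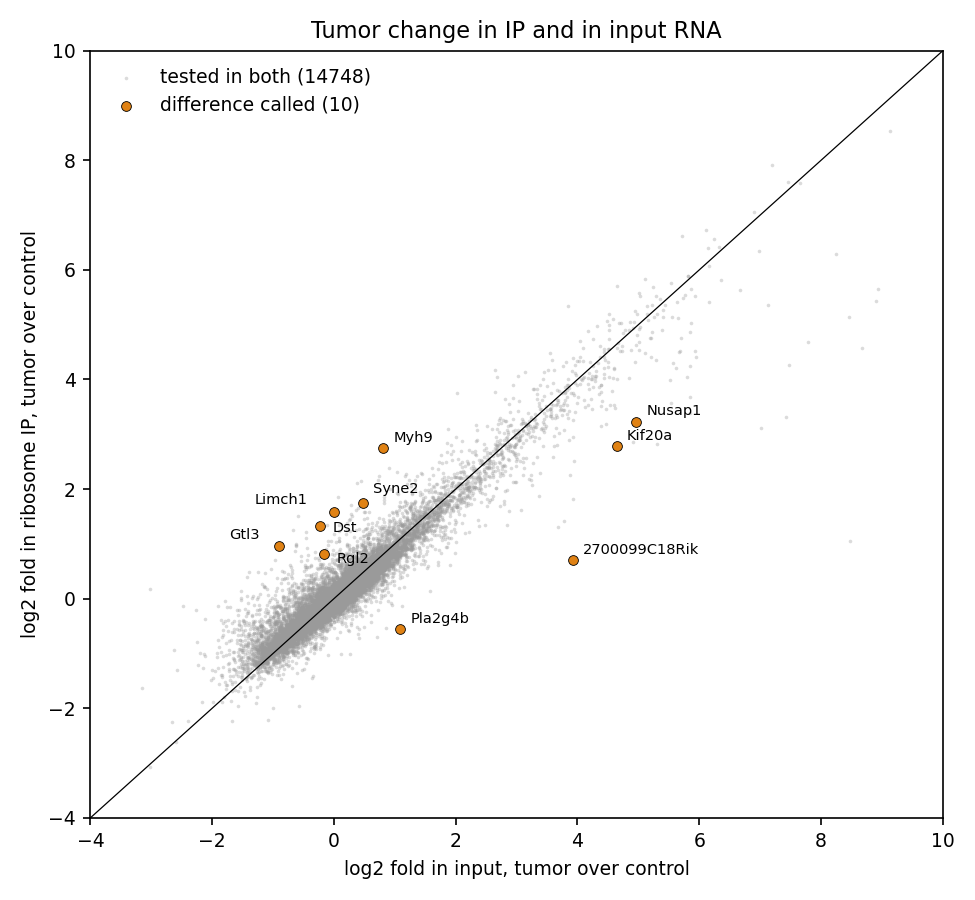
Log2 fold of tumor over control in IP (y axis) against that in input (x axis), 1 grey point per gene tested in both, with the line of equal change. The 10 genes whose difference was called by the fit without the replicate block are in orange. Points lie along the line, and Myh9, Syne2, Limch1, Dst, Gtl3 and Rgl2 lie above it while Nusap1, Kif20a, Pla2g4b and 2700099C18Rik lie below.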

How the data were processed

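RNA of the HA-tagged ribosome pull-down (IP) was measured in 3 tumor and 3 control libraries, with 3 input libraries of each condition used beside them. The deposited table holds raw counts of reads per gene symbol, made by the authors from RNA purified with RNeasy and libraries of the NEBNext Ultra Directional kit, per the labels' protocols. STAR, DESeq2 and mm10 are named per the submitters' processing notes; counting tool, annotation, strand setting and tool versions were not given in the sources used here, so reads of overlapping and antisense genes may not be told apart. Of 23420 symbols 23260 (99.3%) matched RefSeq (GRCm38.p6), the source of coordinates and promoters.

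Genes passing filterByExpr were tested with edgeR 4.0.16 (R 4.3.3): TMM scaling, quasi-likelihood F test, tumor IP over control IP on the 6 IP libraries, Benjamini-Hochberg adjustment, threshold 0.05. The standard error is the log2 fold divided by the square root of F. Input libraries were fitted the same way, and the difference between fractions in 1 model of 12 libraries. The fits were tested on simulated data. No pair of replicates agreed within sampling noise. Numbers pair input with IP libraries (deviations of same-numbered libraries correlated at 0.193 to 0.744) but not control with tumor IP (0.041 to 0.095).

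Named genes followed a rule: the 12 highest and 12 lowest folds among called genes with a mean of at least 10 CPM, no overlap between groups and an ordinary symbol; of each gene list, the 6 called members of smallest adjusted p, the 3 largest folds in each direction, up to 4 abundant members that did not pass and every member of small roles; a fixed set of markers; and the largest differences between fractions under the same filters. Some genes that the rule names are not reported here. Promoters shown are those of smallest adjusted p that hold the motif and start at the gene's outer end, with genes on chromosome 18 left out. The comparison and the gene lists were chosen with earlier results of these data known. Alternatives were RLE, upper quartile and total-count scaling, DESeq2 1.42.0, limma voom 3.58.1, other filters, thresholds and sets of libraries, a replicate block and each library left out. Figures used matplotlib 3.10.9.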

Additional observations from a re-analysis of the deposited data

Results flagged for a closer look

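By the test of the difference itself, without the replicate block, the tumor change differed between IP and input for 10 genes. That fit does not use the pairing of same-numbered input and IP libraries. With the block 112 genes were called. Without control replicate 2 or control replicate 3 the fit without the block called 0. The log2 difference, IP minus input, was 1.96 for Myh9, 1.88 for Gtl3, 1.6 for Limch1, 1.58 for Dst, 1.29 for Syne2 and 0.99 for Rgl2, and -1.63 for Pla2g4b, -1.71 for Nusap1, -1.84 for Kif20a and -3.2 for 2700099C18Rik. Pla2g4b, a phospholipase gene, and Gtl3 were called in opposite directions in the 2 fractions: Pla2g4b at -0.56 in IP and 1.09 in input, Gtl3 at 0.97 in IP and -0.90 in input. Pla2g4b and 2700099C18Rik are named because the test called them.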

How the results depend on the processing

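The count of 7486 genes called in tumor IP against control IP was 4725 at an adjusted p under 0.01 and 960 (952 higher, 8 lower) when tested against an absolute log2 fold of 1; under the other scalings, tools, filters and sets of libraries it lay within 1.5 times, and no call shared with the reported fit changed direction. Leaving out each library gave 5614 to 7459 calls in IP, 4457 to 6951 in input (4457 without control input replicate 2) and 0 to 34 for the difference between fractions. With the replicate number as a block the IP count was 7081 and the input count 6865. For the difference the block was condition and replicate number together, and the count was 112, against 10 without. DESeq2 gave 45 for the difference. Control and tumor IP libraries share only a number, although each correlated best with its own. Scaling to plain totals moved the median log2 fold of all genes from 0.008 to 0.107, and upper quartile scaling to -0.05. Depth limits genes with few counts, such as the HOX genes outside the A cluster, whose change was not detectable at this depth. The median log2 fold of some lists changed sign, and their up and down counts carry no direction for the list: with the filter at 5 CPM it was -0.95 for T and NK cell genes, 0.11 for ependyma and red cell genes and -0.09 for chemokines, with plain totals 0.03 for mTOR genes, and with single libraries left out it ran from -0.35 to 2.36 for T and NK cell genes and from -0.05 to 0.35 for long noncoding RNAs. For growth factors the median went from -0.012 to 0.105 at most (with every symbol that had at least 1 count), for TGF-beta and related genes from 0.051 to -0.008 (upper quartile), for microglia and macrophages from 0.119 to -0.184 (filter at 5 CPM) and -0.077 (without tumor IP replicate 2), and for endothelial and mural genes from -0.023 to 0.079 at most (without control IP replicate 3).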

Other observations

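By chromosome, the median log2 fold of tumor IP over control IP was 0.185 for the 604 genes tested on chromosome 15, of which 33.9% rose, and 0.189 in input. The medians were -0.103 on chromosome 12 and -0.110 on chromosome 19 in IP, and -0.086 and -0.152 in input.

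Of 14504 protein-coding genes tested 26.8% rose and 23.3% fell, and of 636 long noncoding RNA genes 13.7% rose and 12.9% fell. The classes were not matched for level, on which the share called depends, so these shares do not show which class changed more.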
